A study of Mus musculus with 10 samples.

Results

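The endoplasmic reticulum folding and translocation genes examined here were 34 genes named by symbol, and all 34 were found among the 15624 genes of the count table. They comprise 2 transcription factors of the unfolded protein response, 9 chaperones and co-factors of the HSP70 and HSP90 families, 4 disulfide isomerases, 2 lectin chaperones, 7 factors of endoplasmic reticulum-associated degradation, 3 subunits of the Sec61 channel, 4 subunits of the translocon-associated protein complex and 3 subunits of signal peptidase. RNA came from tumour epithelium of established pancreatic ductal adenocarcinoma in KPFSR mice, taken from frozen sections by laser capture. Animals had been given corn oil, the vehicle (4 libraries), or tamoxifen (6 libraries). As the model is known, every animal of both groups carries a mutant Trp53 allele, loxP sites flanking Slc7a11, and CreERT2 at the Rosa26 locus. Tamoxifen activates this Cre, which is not restricted to epithelium, and no library came from an animal that had tamoxifen without the floxed allele, so drug and deletion cannot be told apart. Dose, duration and age are not given in the labels. The comparison asks how the protein-folding and translocation machinery stood after tamoxifen, beside the loss of the mucous secretory program in the same libraries.

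The corn oil libraries held between 16473902 and 36132316 counts, and the tamoxifen libraries between 6899347 (replicate 6) and 19462115. Slc7a11, the cystine transporter that the Cre targets, spanned 23.2 to 40.1 normalised CPM (CPM scaled by TMM factors, where CPM is the count relative to the library total) with corn oil and spanned 5.90 to 19.3 with tamoxifen. Each of 7 epithelial markers exceeded 1 normalised CPM in every library, and their sum spanned 13724 to 29609 in the corn oil group and 13805 to 24380 in the tamoxifen group. Of these 7 markers, 6 were lower with tamoxifen and 1 higher, with a median log2 fold change (tamoxifen over corn oil) of -0.35. Libraries 1 to 3 of the tamoxifen group were the most alike of all (Pearson r across genes of 0.921 to 0.963, against at most 0.878 for any other pair). Tamoxifen replicate 4 had the highest sums of fibroblast markers (1052, against 126 to 467 with corn oil and 133 to 709 in the other tamoxifen libraries) and of macrophage markers (1411, against 567 to 837 with corn oil and 125 to 583). Of the tested fibroblast markers, 9 of 9 had a higher mean with tamoxifen. Of 8 tested macrophage markers, 7 were lower and 1 higher, with a median log2 fold change of -0.43. Acinar and plasma cells are rich in the same machinery. All acinar markers (10 of 16 in the table) summed to 22.6 to 209 with corn oil and to 34.1 to 89.6 with tamoxifen, and those other than Cela1 summed to 5.40 to 11.5 with corn oil and to 0 to 5.72 with tamoxifen. Plasma and B cell markers other than Sdc1, which epithelium also expresses, summed to at most 8.87 outside tamoxifen replicate 4, where Igj alone gave 107. Mzb1 was at 0 in every library. Islet markers summed to 2.04 to 191 with corn oil, the highest in replicate 1, and were at 0 in every tamoxifen library. The part of these markers in the results below was not tested. The labels do not tie libraries to animals, so p-values measure only the spread between these libraries. In bulk RNA, fewer cells of a type and less RNA per cell cannot be told apart.

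Secreted and membrane proteins enter the endoplasmic reticulum through the Sec61 channel, assisted by the translocon-associated protein complex, and lose their signal peptide to signal peptidase. Inside, chaperones, lectins and disulfide isomerases fold them, and proteins that fail are returned to the cytosol for degradation. When folding demand exceeds capacity, the sensors IRE1, PERK and ATF6 start the unfolded protein response: IRE1 splices Xbp1 mRNA, and XBP1 and ATF6 raise the transcription of chaperone and degradation genes. Mucus-producing cells, such as the gastric-type cells found in well-differentiated pancreatic tumours, carry a heavy secretory load and use dedicated factors for it.

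Many of the genes in this group are known targets of ATF6 and XBP1 through a promoter sequence called the endoplasmic reticulum stress element, shown here because the most abundant chaperones of this group carry it. RefSeq promoters (GRCm38.p6) were matched by symbol for 27 of the 34 genes and searched on both strands over the 250 bases before the start. The element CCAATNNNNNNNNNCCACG was found in 9 of the 27 (33.3%) and in 35 of 27025 genes with a promoter (0.13%). The 9 were Hspa5, Hsp90b1, Dnajc3, Creld2, Pdia6, Calr, Canx, Derl3 and Syvn1. The shorter form ATTGGNCCACG was found in Herpud1 alone among the 27 and in 10 genes in all (0.037%). TGACGTGG, the unfolded protein response element, was in none of the 27 and in 163 genes in all (0.603%). The elements do not overlap in the promoters printed here. Elements of 5 genes follow, each 5′ to 3′ on the strand that carries the element, with the fixed letters of the element in capitals.
Hspa5, chr2:34772020-34772048, plus strand, element from 65 to 47 bases before the start: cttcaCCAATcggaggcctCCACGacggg
Hsp90b1, chr10:86705633-86705661, minus strand, 212 to 194 bases before the start: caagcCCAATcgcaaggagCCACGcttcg
Hsp90b1, chr10:86705528-86705556, plus strand, opposite to the gene, 107 to 89 bases before the start: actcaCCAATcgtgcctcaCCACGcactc
Calr, chr8:84847070-84847098, plus strand, opposite to the gene, 162 to 144 bases before the start: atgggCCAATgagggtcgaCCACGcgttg
Canx, chr11:50325795-50325823, minus strand, 145 to 127 bases before the start: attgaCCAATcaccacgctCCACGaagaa
Herpud1, chr8:94386368-94386396, plus strand, shorter form, 52 to 42 bases before the start: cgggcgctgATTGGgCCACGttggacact

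Most of the machinery was modestly lower with tamoxifen, and no gene of it passed the threshold of the test across all genes. Of the 34 genes, 25 had a negative log2 fold change (tamoxifen over corn oil) and 9 a positive one, with a median of -0.26, against -0.01 over all 13006 tested genes, of which 50.7% were lower. With RLE or upper-quartile scaling 25 and 26 were lower, with limma voom 19 were lower and 15 higher, without tamoxifen replicates 4 and 6 these were 21 and 13, and without replicate 6 alone 22 and 12. None of the 34 passed an FDR of 0.05 by the edgeR quasi-likelihood test, against 5 of 13006 genes (0.0384%). At an unadjusted p under 0.05 the same test gave 6 of the 34 and 1262 of all tested genes. DESeq2 called 1 of the 34, near its share of 2.47% over all genes, and limma voom with sample weights called 7, where it called 9.62% of all genes. Of the 6, 5 genes were lower (14.7% of the 34, against 5.27% of all tested genes) and 1 was higher (2.94%, against 4.43%). The lower ones were Sec61b, Ssr2, Sdf2l1, Pdia3 and Spcs2, and the higher one was Herpud1. In Ssr2 and Sdf2l1 all tamoxifen libraries lay below all corn oil libraries (5.88% of the 34, against 1.95% of all tested genes), and in no gene of the 34 did they all lie above (1.28% of all tested genes).

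**Figure D1:**
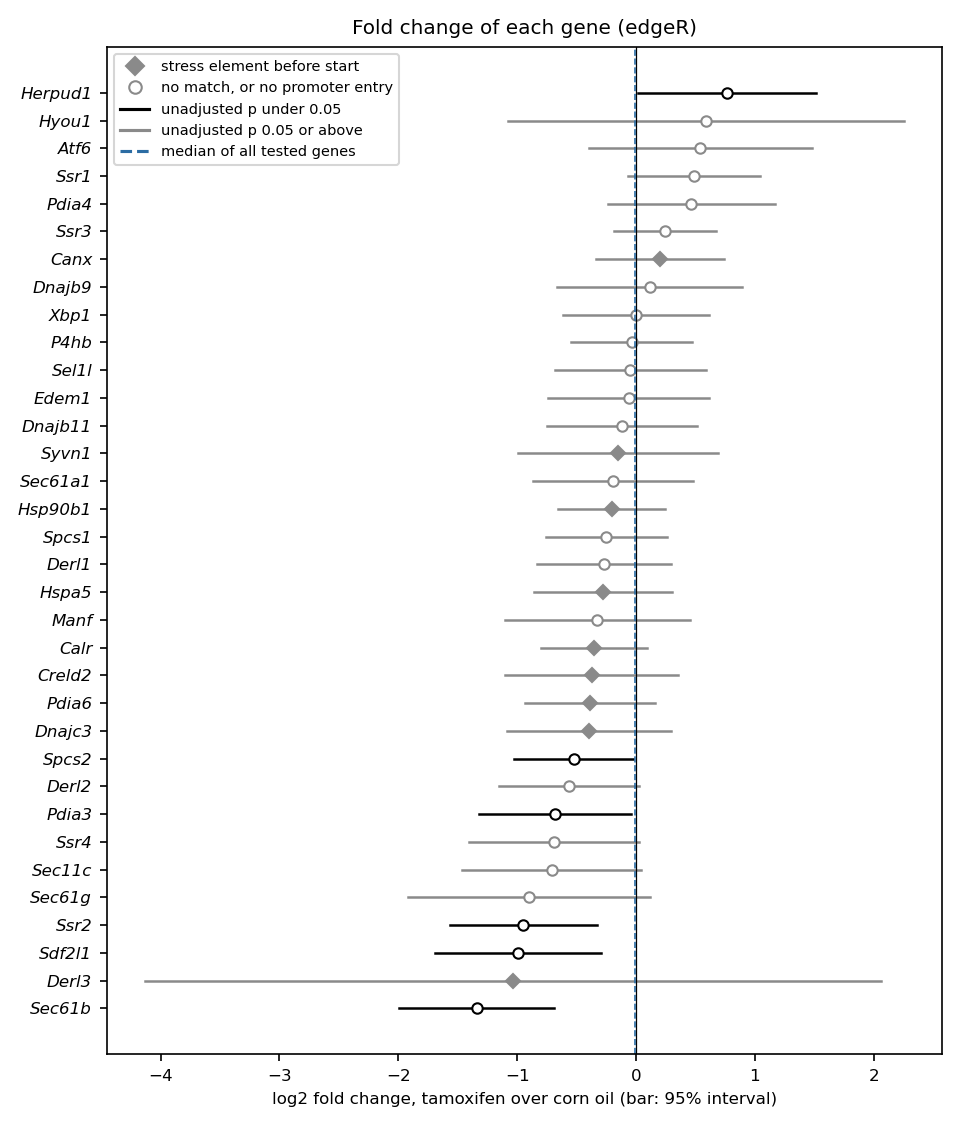
Log2 fold change of each of the 34 genes, tamoxifen over corn oil, with its 95% interval from the edgeR fit. Black marks an unadjusted p under 0.05, diamonds mark genes with the full stress element before the start, and the dashed line is the median of all tested genes (-0.01). Xbp1 lies at 0.00, Sec61b is the lowest and Herpud1 the highest.

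The total mRNA of Xbp1 and Atf6, the transcription factors, was not lower on average with tamoxifen. Xbp1 measured 858, 489.9, 648 and 430.2 normalised CPM in the 4 corn oil libraries and 465, 724, 764, 589, 743 and 357 in the 6 tamoxifen libraries. The groups overlapped, with corn oil replicate 1 the highest and tamoxifen replicate 6 the lowest, and had means of 607 ± 191 (SD, n = 4) and 607 ± 167 (SD, n = 6). Its log2 fold change was 0.00 with a 95% interval of -0.61 to 0.62, and its sign changed in 10 of 22 alternative analyses. Counts per gene do not separate the spliced from the unspliced Xbp1 mRNA, and they do not measure the activity of either factor. Atf6 measured 29.2, 19.5, 38.6 and 32.6 normalised CPM with corn oil and 30.2, 27.7, 38.3, 35.6, 26.2 and 104 with tamoxifen. Only tamoxifen replicate 6, the shallowest library, was above the corn oil range. Atf6 had a log2 fold change of 0.54 (SE 0.43, unadjusted p 0.233).

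Among the chaperones, 7 of 9 were lower and 2 higher, with a median log2 fold change of -0.27. Hspa5 encodes BiP, the HSP70 of the endoplasmic reticulum. It measured 886, 1180.5, 1347 and 1449 normalised CPM with corn oil and 699, 765, 786, 1321, 1372 and 1089 with tamoxifen. Tamoxifen replicates 1 to 3 lay below every corn oil library, and replicates 4 to 6 lay within the corn oil range. Hspa5 had a log2 fold change of -0.27 (SE 0.27, 95% interval -0.86 to 0.31, unadjusted p 0.327), and without replicates 1 to 3 it was 0.06. Hsp90b1 encodes GRP94, the HSP90 of the same compartment. It measured 696, 852, 835 and 763 normalised CPM with corn oil and 590.2, 575, 568, 775, 744 and 839 with tamoxifen. The split was the same, and the log2 fold change was -0.21 (SE 0.21, unadjusted p 0.344), or 0.0041 without replicates 1 to 3.

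Sdf2l1, a small partner of BiP and its J-protein Dnajb11, showed the clearest separation among the chaperones. It measured 117, 138, 118 and 135 normalised CPM with corn oil and 49.7, 38.9, 37.3, 55.9, 86.3 and 115 with tamoxifen. Corn oil libraries were tightly grouped at 127 ± 11.3 (SD, n = 4). Tamoxifen libraries were lower and more spread at 63.9 ± 30.7 (SD, n = 6), and the highest of them, replicate 6, lay just under the lowest corn oil library. The log2 fold change was -0.99 (SE 0.32, 95% interval -1.69 to -0.29), that is 0.502 times the corn oil level. Its unadjusted p was 0.00904 and its adjusted p 0.318 over all tested genes. Without tamoxifen replicates 1 to 3 it was -0.56 with an unadjusted p of 0.118.

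The remaining co-factors gave small differences in either direction. The J-proteins Dnajb9, Dnajb11 and Dnajc3, which bring clients to BiP, had log2 fold changes of 0.12, -0.12 and -0.39. Manf, which binds BiP and stabilises its client complexes, measured 131, 169.7, 169.6 and 256 normalised CPM with corn oil and 92.3, 73.9, 83.5, 181, 202 and 239 with tamoxifen. It showed the same split as Hspa5, with a log2 fold change of -0.32 (SE 0.36) that was 0.19 without tamoxifen replicates 1 to 3. Creld2, a stress-induced resident protein, had -0.37. Hyou1, the nucleotide exchange factor of BiP, spanned 3.02 to 38.2 normalised CPM with corn oil, and its tamoxifen libraries spanned 2.32 to 44. It was among the least abundant genes of the group, and its log2 fold change of 0.59 had a 95% interval of -1.08 to 2.26.

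Of the disulfide isomerases, Pdia3 was lower, and P4hb was at 1014 ± 267 normalised CPM with corn oil and 988 ± 122 with tamoxifen. Pdia3 encodes ERp57, which works with calnexin and calreticulin on glycoproteins. It measured 1202, 1542, 1527 and 1399 normalised CPM with corn oil and 517, 665, 691, 1367, 1299.8 and 775 with tamoxifen. Tamoxifen replicates 1 to 3 and 6 lay below every corn oil library, and replicates 4 and 5 lay within the corn oil range. The means were 1418 ± 157 (SD, n = 4) and 886 ± 357 (SD, n = 6). The log2 fold change was -0.68 (SE 0.30, 95% interval -1.32 to -0.04), that is 0.625 times, with an unadjusted p of 0.0395 and an adjusted p of 0.484. The unadjusted p stayed under 0.05 in 13 of 22 alternatives, and it was 0.363 without tamoxifen replicates 1 to 3. P4hb, the classical protein disulfide isomerase, had a log2 fold change of -0.04 (95% interval -0.54 to 0.47), Pdia6 of -0.39 and Pdia4 of 0.47. Pdia4 ran from 169.7 to 329 normalised CPM with corn oil and lay above that range in 4 of 6 tamoxifen libraries, with the lowest value of all, 136, in tamoxifen replicate 6.

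The lectin chaperones, which hold newly glycosylated proteins, had opposite signs. Calr, the soluble calreticulin, measured 816, 923, 987 and 1109 normalised CPM with corn oil and 621, 838, 733, 673, 897 and 742 with tamoxifen. Of the tamoxifen libraries, 4 of 6 lay below every corn oil library. Calr had a log2 fold change of -0.35 (SE 0.21, 95% interval -0.80 to 0.09, unadjusted p 0.109). Canx, the membrane-bound calnexin, measured 212, 217, 279.9 and 283 normalised CPM with corn oil and 312, 369.8, 365, 202, 272 and 188 with tamoxifen. Here replicates 1 to 3 lay above every corn oil library. Canx had a log2 fold change of 0.20 (95% interval -0.34 to 0.74), and -0.16 without replicates 1 to 3.

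In the degradation branch 6 of 7 genes were lower on average and 1, Herpud1, was higher. Of the 6, Edem1, Derl1, Derl3, Sel1l and Syvn1 changed sign with limma voom, and Derl2 kept its direction in every alternative. Summed normalised CPM of the branch, Herpud1 included, was 903 ± 122 (SD) with corn oil and 1146 ± 284 (SD) with tamoxifen. Herpud1 is a short-lived membrane protein that organises the ubiquitin ligase complex and is induced by stress. It measured 425, 609.5, 486 and 255 normalised CPM with corn oil and 586, 791, 873, 1131, 319 and 835 with tamoxifen. Tamoxifen replicates 2, 3, 4 and 6 lay above every corn oil library, replicates 1 and 5 did not. The means were 444 ± 147 (SD, n = 4) and 756 ± 276 (SD, n = 6), and the log2 fold change was 0.77 (SE 0.35, 95% interval 0.02 to 1.52), that is 1.70 times. The unadjusted p was 0.0454 and the adjusted p 0.503. The unadjusted p was under 0.05 in 10 of 22 alternatives, and without tamoxifen replicate 4, the library highest in fibroblast and macrophage markers, the log2 fold change was 0.62 with a p of 0.0947. The ubiquitin ligase Syvn1 and its adaptor Sel1l had log2 fold changes of -0.15 and -0.05, and Edem1, which recognises trimmed glycoproteins, of -0.06. The derlins, membrane proteins of the export channel, had -0.27 (Derl1), -0.56 (Derl2, unadjusted p 0.0578) and -1.04 (Derl3). Derl3 held 0 to 282 counts per library, 0 in tamoxifen replicates 4 and 6, and its 95% interval ran from -4.13 to 2.06.

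**Figure D2:**
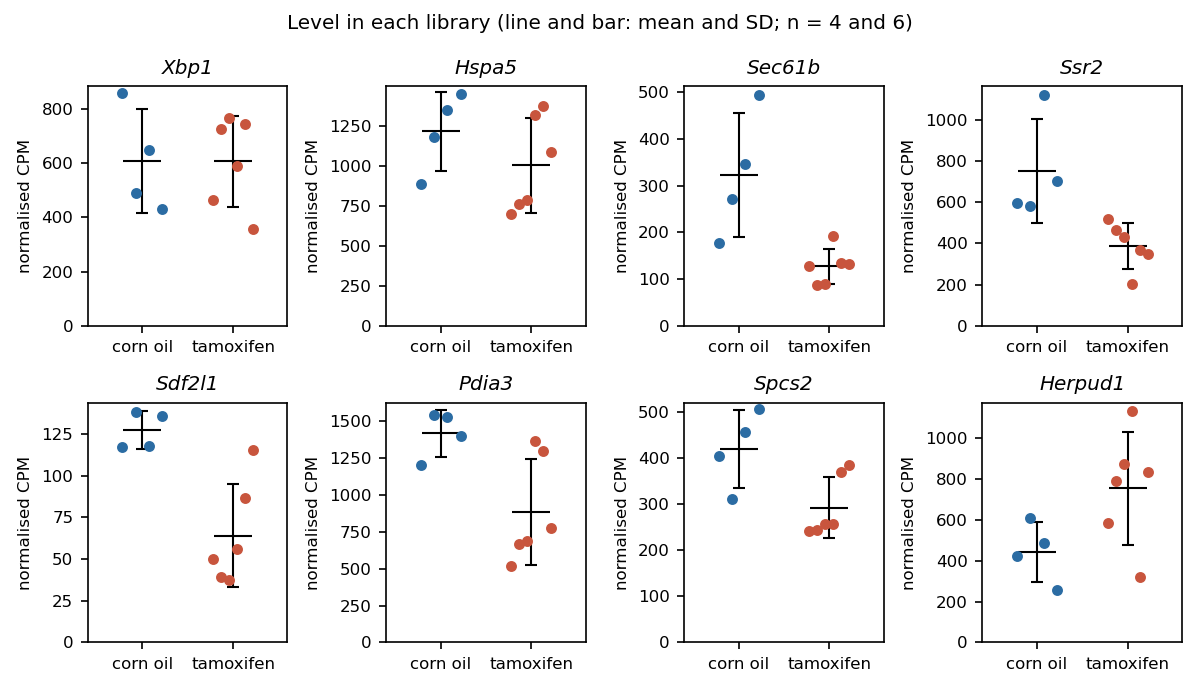
Normalised CPM in each library for 8 genes, corn oil in blue and tamoxifen in red, with the group mean and SD (n = 4 and 6). Ssr2 and Sdf2l1 do not overlap between the groups, Sec61b overlaps by tamoxifen replicate 4 alone, and the Xbp1 means are equal at 607.

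All 3 Sec61 subunits were lower on average, by unequal amounts. Sec61a1 forms the pore, and Sec61b and Sec61g are small tail-anchored subunits beside it. Sec61b measured 178, 272, 346 and 493 normalised CPM with corn oil and 128, 88.3, 88.7, 192, 134 and 132 with tamoxifen. Of the tamoxifen libraries, 5 of 6 lay below the lowest corn oil library, and replicate 4 lay just above it. The means were 322 ± 133 (SD, n = 4) and 127 ± 38.1 (SD, n = 6). The log2 fold change of Sec61b was -1.34 (SE 0.30, 95% interval -2.0 to -0.69), that is 0.395 times, with an unadjusted p of 0.000701 and an adjusted p of 0.154. It was the lowest of the 34 genes, and its unadjusted p was under 0.05 in 22 of 22 alternatives. Its adjusted p ran from 0.00661 to 0.965 over them.

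The pore subunit was not lower to the same degree. Sec61a1 measured 417, 742, 454 and 468 normalised CPM with corn oil and 271, 427, 419, 827, 462 and 327 with tamoxifen. Corn oil replicate 2 and tamoxifen replicate 4 stood apart at the top, and the log2 fold change was -0.19 (SE 0.31, 95% interval -0.86 to 0.48). Sec61g measured 24.7, 25.9, 15.3 and 35.4 normalised CPM with corn oil and 18.7, 6.10, 7.34, 16, 10.9 and 22.4 with tamoxifen. Its log2 fold change was -0.90 (SE 0.47, unadjusted p 0.0778). Sec61g has 4 near-identical copies in the annotation. The only match of Sec61a1, Gm44170, overlaps it on the opposite strand, so it may be that overlap and not a separate copy. Reads could be split in either case, and the levels of both genes are uncertain. The ratio of Sec61b to Sec61a1 in normalised CPM spanned 0.366 to 1.05 with corn oil, and with tamoxifen 0.207 to 0.473. This ratio, read only between libraries and chosen after the values were seen, overlapped between the groups.

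The 4 subunits of the translocon-associated protein complex diverged: Ssr2 and Ssr4 were lower, and Ssr1 and Ssr3 higher, on average. Ssr2, the beta subunit, measured 596, 583, 1117 and 704 normalised CPM with corn oil and 520.2, 465, 431, 202, 370.1 and 347 with tamoxifen. Every tamoxifen library lay below every corn oil library. The means were 750.4 ± 251 (SD, n = 4) and 389 ± 111 (SD, n = 6), and the log2 fold change was -0.95 (SE 0.29, 95% interval -1.57 to -0.33), that is 0.519 times. Its unadjusted p was 0.00588 and its adjusted p 0.294, and the unadjusted p was under 0.05 in 22 of 22 alternatives. Unlike the chaperones with the split described for Hspa5, its lowest values were in tamoxifen replicates 4 to 6. Ssr2 overlaps Gm10704 on the opposite strand, and the library kits do not mark strand.

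The delta subunit Ssr4 measured 308, 409, 321 and 183 normalised CPM with corn oil and 208, 138, 119, 147, 158 and 366 with tamoxifen. Its log2 fold change was -0.69 (SE 0.33, 95% interval -1.40 to 0.03), and tamoxifen replicate 6 stood well above the other tamoxifen libraries. The alpha subunit Ssr1 measured 78.3, 158, 184 and 121 normalised CPM with corn oil and 146, 179, 202, 225, 181 and 206 with tamoxifen. Corn oil replicate 1 was the lowest, and the log2 fold change was 0.49 (SE 0.26, unadjusted p 0.0782). The gamma subunit Ssr3 had 0.24 (95% interval -0.18 to 0.67). The ratio of Ssr2 to Ssr1 was 7.62, 3.69, 6.08 and 5.83 in the corn oil libraries and 3.57, 2.59, 2.14, 0.896, 2.05 and 1.68 in the tamoxifen libraries. The groups did not overlap in this ratio, which was chosen after the values were seen and carries no test. The longest annotated transcript has 1189 bases for Ssr2 and 9333 for Ssr1, the longest of the group. Fold change differed with transcript length over all genes (below), and the part of length in this ratio was not tested.

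All 3 signal peptidase genes were lower on average. Spcs2, an accessory subunit that recognises the membrane segment of the signal peptide, measured 406, 311, 458 and 508 normalised CPM with corn oil and 242, 245, 256, 256, 370.3 and 386 with tamoxifen. Tamoxifen replicates 1 to 4 lay below every corn oil library. The means were 420.5 ± 84.1 (SD, n = 4) and 293 ± 66.7 (SD, n = 6), and the log2 fold change was -0.52 (SE 0.23, 95% interval -1.02 to -0.02), that is 0.696 times. Its unadjusted p was 0.0422 and its adjusted p 0.495. The unadjusted p stayed under 0.05 in 11 of 22 alternatives and was 0.324 without tamoxifen replicates 1 to 3. Sec11c, a catalytic subunit, had a log2 fold change of -0.71 (SE 0.35, unadjusted p 0.0629) and Spcs1 of -0.25 (SE 0.23). Spcs2 has a near-identical pseudogene copy, Spcs2-ps, and Spcs1 overlaps Glt8d1 on the opposite strand, so their counts are uncertain to that extent. Derl1 also has a near-identical copy, and exons on the opposite strand overlap those of Hsp90b1, Manf, Pdia3, Pdia6, Derl2, Syvn1 and Dnajb9. The only near-identical match of Hsp90b1, 1810014B01Rik, is the gene that overlaps it, so it may not be a separate copy.

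On GRCm38 (GENCODE M21) the leading genes lie on different chromosomes. Sec61b lies at chr4:47474658-47483242 on the plus strand, Ssr2 at chr3:88575876-88588419 on the plus strand and Sdf2l1 at chr16:17130138-17132383 on the minus strand. Pdia3 lies at chr2:121413775-121438687 on the plus strand, Spcs2 at chr7:99837569-99863462 on the minus strand and Herpud1 at chr8:94386438-94395377 on the plus strand. Levels per length, as RPKM over the union of annotated exons, put Pdia3 first with corn oil (452 ± 50.1 RPKM, SD), followed by Ssr2 (403 ± 134), P4hb (354 ± 93.5), Calr (333 ± 42.7) and Hspa5 (287 ± 58.2). Neighbours among these 5 did not differ beyond their spread. At the other end were Atf6 (3.25 ± 0.867 RPKM), Hyou1 (2.22 ± 2.11) and Derl3 (2.20 ± 2.51). The 5 lower genes were thus among the upper 14 of the 34 in RPKM, with Sec61b at rank 7, Sdf2l1 at rank 12 and Spcs2 at rank 14.

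By library, the mean log2 CPM of the 34 genes was 7.28, 7.40, 7.60 and 7.67 with corn oil and 7.16, 7.25, 7.26, 7.20, 7.34 and 7.17 with tamoxifen. Only tamoxifen replicate 5 reached the corn oil range, and the group means were 7.49 ± 0.18 (SD, n = 4) and 7.23 ± 0.07 (SD, n = 6). Together the 34 genes took 1.05% to 1.27% of all counts with corn oil and 0.90% to 1.16% with tamoxifen. The highest library of a gene was a corn oil library in 24 of 34 genes, 12 of them in replicate 4. The lowest was a tamoxifen library in 27 of 34, 8 of them in tamoxifen replicate 6, the shallowest library. Shares over all tested genes were not computed for these counts, and the groups differ in size (4 and 6 libraries). Tamoxifen replicates 1 to 3 all lay below replicates 4 to 6 in 9 genes: Hspa5, Hsp90b1, Dnajb11, Sdf2l1, Manf, Pdia3, Sec61b, Sec11c and Spcs2. Over all tested genes this held for 11.2%. They all lay above them in 5 genes, Hyou1, Canx, Derl3, Syvn1 and Ssr2, where 13.8% of all tested genes did.

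**Figure D3:**
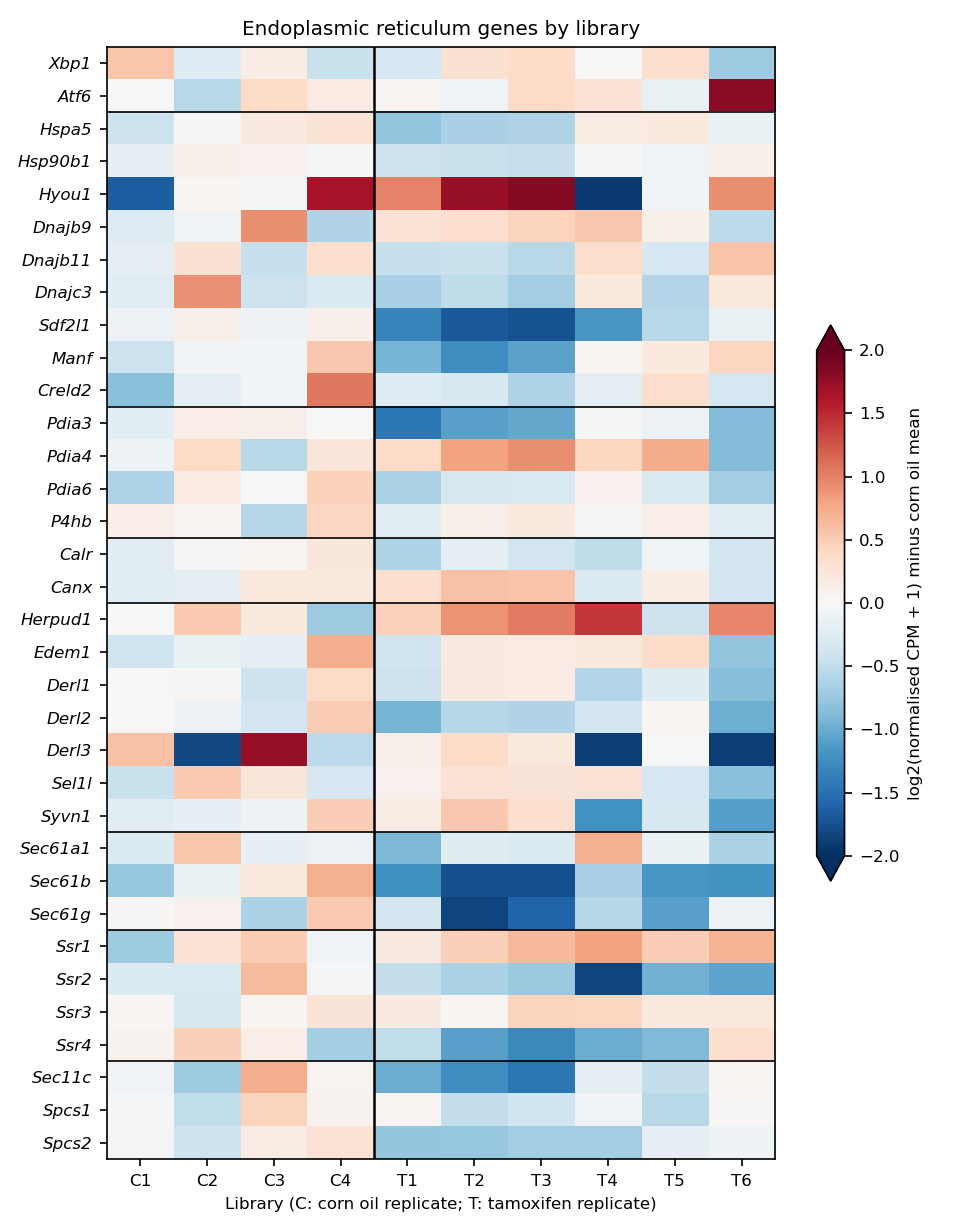
Each of the 34 genes in each library, as log2(normalised CPM + 1) minus the corn oil mean, with genes ordered by role and libraries C1 to C4 (corn oil) and T1 to T6 (tamoxifen). Sec61b and Ssr2 are below the corn oil mean in all 6 tamoxifen libraries, while Hspa5, Manf and Pdia3 are lowest in T1 to T3.

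The secretory program differed far more than the machinery that serves it. A list of 40 genes of mucous and gastric-type cells held mucins, trefoil factors, gastrokines, glycosyltransferases and transcription factors. It also held Agr2, Agr3 and other secreted and surface markers, such as Ctse, Pgc, Cldn18 and Vsig1. Lyz2 was on this list and also among the macrophage markers. Of the 40 genes, 37 were in the table and 36 were tested. Of these, 32 were lower and 4 higher, with a median log2 fold change of -1.63, and 18 (50%) were lower at an unadjusted p under 0.05, against 5.27% of all tested genes. None was higher at that level, and 2 passed the FDR, Tff1 and Creb3l4. The mean log2 CPM of this list was 6.80, 6.34, 7.29 and 6.73 in the corn oil libraries and 3.14, 4.01, 3.17, 5.56, 5.23 and 4.0 in the tamoxifen libraries. Every tamoxifen library lay below every corn oil library, and the group means differed by -2.60, against -0.26 for the 34 endoplasmic reticulum genes. Both lists were chosen with earlier results of these data known, so these values may in part restate that choice. The difference between the lists was not tested. Within the tamoxifen group the list was highest in replicates 4 and 5 and lowest in replicates 1 and 3. The mean of the 34 genes stayed within 7.16 to 7.34 in all 6, but their roles did not move alike. Summed normalised CPM of the disulfide isomerases was highest in tamoxifen replicates 4 and 5 (3405 and 3369, against 2153 to 2872 in the others). That of the translocon-associated protein genes was lowest in the same replicates (841 and 938, against 988 to 1150). Without Creb3l4, Creb3l1, Spdef, Agr2 and Agr3, which act on or in the endoplasmic reticulum or control secretory genes, the median of the list was -1.51.

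**Figure D4:**
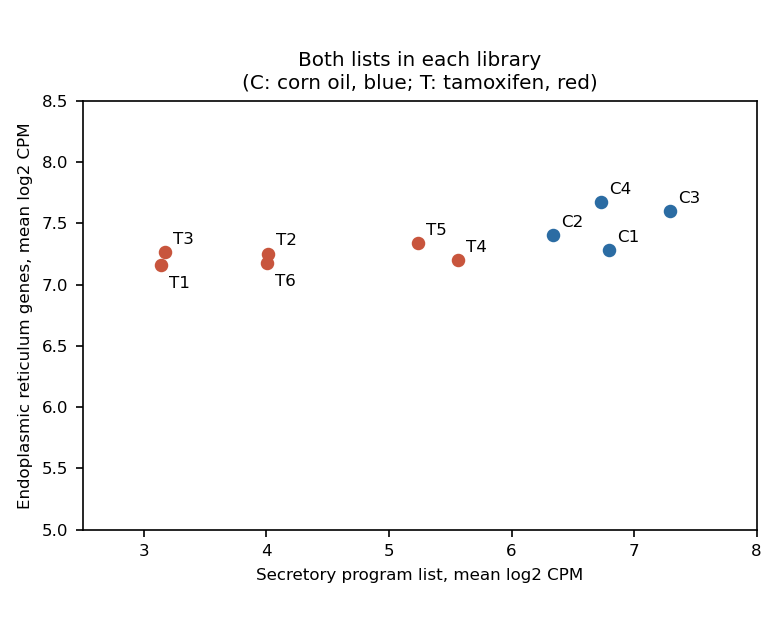
Mean log2 CPM of the secretory program list (horizontal axis) and of the 34 endoplasmic reticulum genes (vertical axis) in each library, corn oil in blue and tamoxifen in red. The secretory list spans 3.14 to 7.29, and the endoplasmic reticulum genes span 7.16 to 7.67.

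Several regulators and enzymes of mucous secretion were far lower with tamoxifen, while Xbp1 had a log2 fold change near 0. Creb3l4, which like ATF6 is tethered to the membrane until cleaved, measured 178, 42.4, 244 and 114 normalised CPM with corn oil and 7.84, 7.97, 9.62, 14.5, 3.43 and 15.8 with tamoxifen. It fell, with a log2 fold change of -3.88 (SE 0.50) and an edgeR adjusted p of 0.0351. Creb3l4 passed the FDR in 13 of 22 alternatives and Tff1 in 11, and neither passed without corn oil replicate 1, 3 or 4, without tamoxifen replicate 1, 2 or 3, with these 3 as 1 sample or left out together, or with sex as a covariate. Tff1 also failed to pass without corn oil replicate 2 and without tamoxifen replicate 6. Adjusted p reached 0.509 for both. Ern2, the IRE1 of mucus-secreting epithelium, measured 125, 46.0, 55.9 and 78.4 normalised CPM with corn oil and 0.174, 3.68, 4.36, 5.09, 12.8 and 0.163 with tamoxifen. The groups of Ern2 did not overlap, and its log2 fold change was -4.10 (SE 0.87, unadjusted p 0.000405, adjusted p 0.129). Ern1, the IRE1 found in most tissues, had 0.61 (SE 1.19) from low counts, Eif2ak3, which encodes PERK, 0.12 and Atf6b 0.14.

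Spdef, the transcription factor of goblet-type differentiation, measured 94.3, 48.7, 149 and 91.1 normalised CPM with corn oil and 0, 9.84, 1.75, 5.34, 5.32 and 0.163 with tamoxifen. Its groups did not overlap either, with a log2 fold change of -4.65 (SE 0.94, adjusted p 0.113). Agr2, the disulfide isomerase that folds mucins, measured 414, 707, 567 and 1831 normalised CPM with corn oil and 1.22, 1.36, 2.75, 451, 199 and 12.4 with tamoxifen. Tamoxifen replicate 4 lay within the corn oil range and replicate 5 below it, both far above the other 4, and its log2 fold change was -2.98 (SE 1.36, unadjusted p 0.0478). Creb3l1, a further membrane-bound factor, measured 71.5, 93.3, 89.9 and 33.8 with corn oil and 2.96, 9.03, 2.70, 76, 70.2 and 0.327 with tamoxifen, in normalised CPM. Tamoxifen replicates 4 and 5 were again the highest of their group and lay within the corn oil range. The log2 fold change of Creb3l1 was -1.42 (SE 1.03, unadjusted p 0.19).

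Other genes of the pathway gave a mixed picture. Over 7 further lists, 158 genes were tested, of which 74 were lower and 84 higher, with a median log2 fold change of 0.02. At an unadjusted p under 0.05, 17 (10.8%) were lower and 11 (6.96%) higher, against 5.27% and 4.43% of all tested genes. These lists share Agr2, Agr3, Creb3l1 and Creb3l4 with the secretory list, and Creb3l4 and Agr2 are among the 17. Among other thiol and prolyl folding enzymes and chaperones, 7 of 29 were lower at that level, Agr2 among them, and 1 higher. Dnajc10, a reductase that opens disulfides for degradation and is no member of the 34, measured 303, 294, 399 and 466 normalised CPM with corn oil and 107, 159.5, 139.8, 157, 215 and 108 with tamoxifen. Its groups did not overlap, and its log2 fold change was -1.31 (SE 0.25, unadjusted p 0.000151, adjusted p 0.102). Pdia5, a disulfide isomerase, spanned 53.9 to 152 normalised CPM with corn oil, and with tamoxifen 25.6 to 44.7 (log2 fold change -1.53, SE 0.30, adjusted p 0.113). Sdf2, the close relative of Sdf2l1, had -0.84 (unadjusted p 0.00853), and Fkbp10, a prolyl isomerase of collagen folding, had 1.58 (unadjusted p 0.0463).

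The steps before and after folding held genes of both directions. Signal recognition and other translocation had 2 of 18 genes lower and 1 higher at an unadjusted p under 0.05: Srp9 of the signal recognition particle had a log2 fold change of -1.09 and the tail-anchor factors Asna1 and Wrb had -0.79 and 1.51. N-glycosylation had 3 of 29 lower, the oligosaccharyltransferase subunits Ostc (-0.77), Rpn2 (-0.57) and Ddost (-0.56), and 1 higher, the mannosyltransferase Alg9 (0.72). Export and retrieval had 3 of 34 lower, the coat proteins Cope (-0.74) and Sec13 (-0.57) and the retrieval receptor Kdelr2 (-0.68), and 2 higher, the cargo receptor Tmed7 (0.62) and the GTPase Sar1a (0.52). The shares higher in the 3 lists, 3.45% to 5.88%, were near the 4.43% of all tested genes, and the shares lower were 8.82% to 11.1%, against 5.27%. None of these passed the FDR.

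Among other degradation factors and targets of the PERK arm, the genes that met an unadjusted p under 0.05 were all higher. Of 25 other degradation factors, none was lower at an unadjusted p under 0.05 and 3 (12%) were higher, among them the ubiquitin-conjugating enzyme Ube2g2 (log2 fold change 0.84) and the glycanase Ngly1 (0.70). Of 12 targets of the PERK arm, 8 were higher and 4 lower, with a median of 0.55. At an unadjusted p under 0.05 none of the 12 was lower and 3 (25%) were higher: Ddit4 (1.53), an inhibitor of mTOR signalling, the transcription factor Cebpb (0.71) and Ddit3 (1.02), which encodes CHOP. Cebpb lay above every corn oil library in all 6 tamoxifen libraries. Of all tested genes, 5.27% were lower and 4.43% higher at this level, so no lower gene among 25 or 12 is near that share. None of these passed the FDR.

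Of the 9 genes with the full stress element, 8 were lower and 1 higher, with a median log2 fold change of -0.35. None of the 9 met an unadjusted p under 0.05, which is near the shares over all tested genes (5.27% lower and 4.43% higher) for so few genes. Of the 18 genes with a promoter entry and no full element, 12 were lower and 6 higher, with a median of -0.09, and 4 were lower and 1 higher at that level. The 7 genes without an entry had a median of -0.27. Sec61b, Sdf2l1, Pdia3 and Spcs2 were the 4, and Ssr2 had no entry.

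Short transcripts were lower across all genes, and the short members were lower still. Among tested genes whose longest annotated transcript is under 1500 bases, 66.7% of 1518 were lower, with a median log2 fold change of -0.26. From 1500 to 3000 bases the median was -0.05 (3748 genes), and from 3000 bases up it was 0.07 (6951 genes). All 6 members under 1500 bases were lower, with a median of -0.97: Sec61b, Ssr2, Sdf2l1, Derl3, Creld2 and Spcs1. The 14 members from 1500 to 3000 bases had a median of -0.22 and the 14 longer ones -0.17. Spearman's rho between transcript length and log2 fold change was 0.47 across the 34 genes and 0.12 across 12217 tested genes, both as descriptions across genes, which share libraries and are not independent replicates. The part of transcript length in the differences of Sec61b, Ssr2 and Sdf2l1, and in the subunit ratios above, was not tested.

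**Figure D5:**
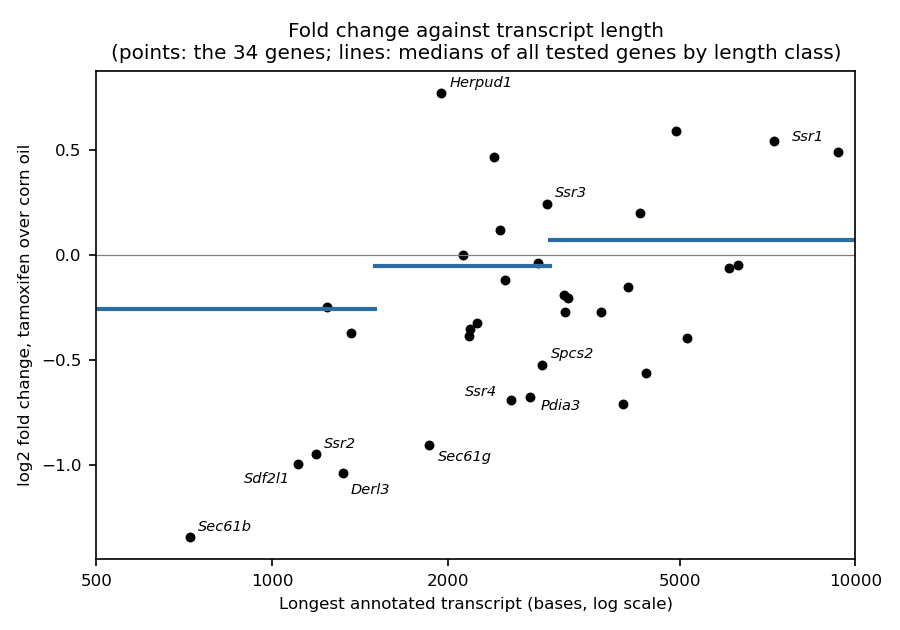
Log2 fold change, tamoxifen over corn oil, against the length of the longest annotated transcript (log scale) for the 34 genes, with the median of all tested genes in each length class as lines (-0.26, -0.05 and 0.07). The members under 1500 bases lie between -1.34 and -0.25.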

How the data were processed

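Counts were read from tumour epithelium of 4 corn oil and 6 tamoxifen libraries. The deposited table holds the authors' raw counts of reads for each gene symbol. Per the labels' protocols, cDNA was amplified with SMART-seq v4 and made into libraries with Nextera XT, which do not mark strand. The submitters' processing notes name mm10, STAR 2.5.2b, featureCounts 1.5.0-p3 and bcl2fastq 2.17. The annotation and strand setting are not given in the sources. Replicate numbers follow accession order.

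Counts were tested with edgeR 4.0.16 (R 4.3.3): filterByExpr (13006 of 15624 genes), TMM factors, the quasi-likelihood F test without covariates, and Benjamini-Hochberg adjustment over all tested genes at an FDR of 0.05. A prior count of 2 entered log2 CPM. SE values are the absolute log2 fold change over the square root of F, and 95% intervals use the t distribution with the fit's degrees of freedom. Alternatives used DESeq2 1.42.0 and limma 3.58.1, among others. Exon lengths, transcript lengths and overlaps came from GENCODE M21, and copies were matches of at least 95% over at least 200 bases by blastn 2.17.0. Promoters are RefSeq's. For 26 of 28 member promoters, the bases after the start were found in an annotated transcript on the gene's strand. The test was tested on simulated data. Figures were drawn with matplotlib 3.10.9.

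The genes, lists and alternatives were chosen with earlier results of these data known, so lists are described by counts and medians without a test. Full values were given for Hspa5, Xbp1, Atf6 and Hsp90b1 and for genes with an unadjusted p under 0.05 or groups that do not overlap, and of each other pathway list up to 3 genes per direction of smallest p. Full values of other genes were added after they were seen. A planned search of protein sequences was not run, and some items are not reported here. Counts carry no molecular identifiers, and total counts set the precision of low genes such as Derl3.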

Additional observations from a re-analysis of the deposited data

Results flagged for a closer look

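Of 72 sets of values checked (the 34 genes and 2 list means in each group), 7 held a library far from the others by Dixon's ratio of gap to range. This rule flags about 1 in 20 sets only where values are normally distributed and sets are independent. Values per gene were not on a log scale and genes share libraries, so the 7 cannot be set against chance. Each flagged library was the highest of its group. Tamoxifen replicate 6, the shallowest library, was high for Atf6 (104 normalised CPM, the other tamoxifen libraries 26.2 to 38.3) and for Ssr4 (366, the others 119 to 208). Tamoxifen replicate 4 was high for Sec61a1 (827, the others 271 to 462), and tamoxifen replicate 5 was high for Creld2 (138, the others 70.2 to 94.6). Corn oil replicate 2 was high for Sec61a1 (742, the other corn oil libraries 417 to 468) and for Dnajc3 (362, the others 143 to 166). Corn oil replicate 4 was high for Syvn1 (64.3, the others 38.8 to 42.5). None of these genes is among the 6 with an unadjusted p under 0.05.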

How the results depend on the processing

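No paired analysis was possible because the labels give no replicate numbers, and the numbers used here only name libraries. Over 22 alternatives, 10 of which left out 1 library each, 17 of the 34 genes kept their direction in every one, Sec61b, Ssr2, Sdf2l1, Pdia3, Spcs2 and Herpud1 among them, and 17 changed sign in at least 1. The cause of each difference below was not tested. Genes past the FDR numbered 5, and they numbered 343 with DESeq2, 1251 with limma voom, 77 without tamoxifen replicates 4 and 6, 21 with detected genes as a covariate, and 0 with sex as a covariate (read from Xist and Ddx3y counts, not from the labels), with tamoxifen replicates 1 to 3 as 1 sample and without these 3. With 1 library left out they numbered 0 to 11. Endoplasmic reticulum genes past the FDR numbered 1 with DESeq2 (Sec61b) and 7 with limma voom (Sec61b, Sdf2l1, Pdia3, Sec61g, Ssr4, Sec11c and Spcs2), and 0 with any 1 library left out. Limma voom weights were 1.69, 5.49 and 3.87 for tamoxifen replicates 1, 2 and 3, and 0.308 and 0.333 for replicates 4 and 6. The 5 genes lower at an unadjusted p under 0.05 became 11 with limma voom (15.6% of all tested genes were lower there, against 5.27%), 3 with tamoxifen replicates 1 to 3 as 1 sample (2.70%), 2 without them (2.23%), 9 without replicates 4 and 6 (10.1%) and 8 with detected genes as a covariate (7.88%), and 3 to 7 with 1 library left out. The 1 higher gene became 4 with limma voom (11.3% of all tested genes were higher, against 4.43%) and 0 with replicates 1 to 3 as 1 sample, without them, with either covariate and on leaving out any of corn oil replicates 1 and 4 and tamoxifen replicates 2, 3 and 4. Herpud1 also had a p of 0.0646 without corn oil replicate 3 and 0.0691 without tamoxifen replicate 6, where the 1 higher gene was Ssr1 and Pdia4, respectively. The median of the 34 genes ran from -0.30 to -0.17 with 1 library left out.

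Log2 fold changes that changed sign were as follows. Xbp1 had -0.0070 with upper-quartile factors, -0.014 with the filter of 5 CPM in 4 libraries, -0.12 with sex as a covariate, -0.025 with tamoxifen replicates 1 to 3 as 1 sample and -0.10 without them. Limma voom gave 0.34 for Syvn1, 0.28 for Sel1l, 0.53 for Derl3, 0.049 for Derl1, 0.19 for Edem1 and 0.081 for P4hb. Sex as a covariate gave 0.041 for P4hb and -0.15 for Dnajb9. Without tamoxifen replicates 1 to 3, Canx had -0.16, Manf 0.19, Dnajb11 0.21, Dnajb9 -0.012, Hyou1 -0.41, Hsp90b1 0.0041, Hspa5 0.056 and Sec61a1 0.055, and Dnajb11 had 0.062 with the 3 as 1 sample. Without replicates 4 and 6, Edem1 had 0.033, Sel1l 0.034, Syvn1 0.18 and P4hb 0.024. With 1 library left out, the range was -0.60 to 0.12 for Creld2, -1.44 to 0.055 for Derl3, -0.067 to 0.55 for Dnajb9, -0.53 to 0.022 for Dnajc3, -0.19 to 0.25 for Edem1, -0.19 to 0.11 for P4hb, -0.45 to 0.030 for Sec61a1, -0.18 to 0.16 for Sel1l, -0.30 to 0.046 for Syvn1 and -0.13 to 0.22 for Xbp1.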
